A study of Mus musculus with 12 samples.

Results

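Mitosis and G2/M genes encode the proteins that condense the chromosomes, build the spindle, hold the sister chromatids until every kinetochore is attached and then divide the cell. They were followed as 56 named genes, found by gene name among the 34745 genes of the expression table, and all 56 were present. The rule used the names alone and no value of the table, though the genes were chosen with earlier results of these data known. The genes were ordered here by 9 roles, from chromosome structure to cytokinesis.

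Entry into mitosis is driven by CDK1 bound to cyclin B, which is held inactive by phosphorylation until CDC25 phosphatases act on it. The spindle assembly checkpoint, with the BUB and MAD proteins, then restrains the anaphase-promoting complex, a ubiquitin ligase that works with CDC20 or FZR1, until every chromosome is attached. Most of these genes are transcribed late in the cell cycle under FOXM1, B-MYB and the MuvB complex, so that their mRNA in a culture rises with the fraction of cells in G2 and M as well as with transcription per cell. In a bulk RNA sample those sources, fewer cycling cells or less RNA in each, cannot be told apart.

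RNA was measured by sequencing in MLE-12 cells, a mouse line of lung alveolar type II origin that carries a viral large T antigen, which binds Rb family proteins and p53. Cells in the LPS group were kept at 21% oxygen with 100 ng/mL lipopolysaccharide, and cells in the Hyp group at 85% oxygen. In LPS + M2-Exo and Hyp + M2-Exo, 10 µg/mL of exosomes from M2-polarized macrophages of a mouse alveolar macrophage line was added after the injury. All libraries were labelled 24 h, each group held 3 of them, and nothing in the labels says that the 3 came from separate cultures, so the p-values measure only the spread between these libraries. Cells without an injury were not analysed here. A gene described as higher in Hyp than in LPS could equally be described as lower in LPS, and the injury cannot be told apart from anything else that differed between those sets of libraries.

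Totals ranged from 16021833 to 24074616 counts per library, with the lower end in LPS + M2-Exo and the upper end in Hyp. Of the type II markers, Abca3, Nkx2-1 and Etv5 were present, Sftpc averaged 22.3 CPM in LPS, 22.8 in LPS + M2-Exo, 11.3 in Hyp and 13.1 in Hyp + M2-Exo (CPM being counts scaled to library size, with the size adjusted by the trimmed mean of M values over the 12 libraries), and Sftpa1 and Sftpd were at or near 0. Sftpb, Napsa, Slc34a2 and Lamp3 were low. Their means were 1.498, 3.074, 0.8858 and 0.3082 CPM in LPS, in that order. In Hyp they were 4.633, 0.7439, 0.4553 and 0.4332 CPM. Epcam, Krt18 and Cldn4 were near 0, while Krt8 and Krt19 were abundant. Macrophage markers were also found: 14 genes summed to 469 to 527 CPM in LPS, 373 to 428 in LPS + M2-Exo, 121 to 128 in Hyp and 96.7 to 141 in Hyp + M2-Exo, with Chil3 at 0 throughout. Fibroblast markers summed to 817 to 843 CPM in LPS, 775 to 798 in LPS + M2-Exo, 330 to 357 in Hyp and 350 to 360 in Hyp + M2-Exo, nearly all of it Dcn. Mean sums in LPS and Hyp were 435 and 258 CPM for type II markers, 439 and 311 for type I, 23.7 and 6.65 for endothelial and 674 and 886 for epithelial markers, the last in the other direction. The epithelial sum was mostly Krt19, at 500 CPM in LPS and 740 in Hyp. Of the 4 epithelial markers tested, 3 were lower in Hyp and 1 was higher. The endothelial sum was mostly Tek, at 23.3 CPM in LPS and 3.67 in Hyp, and of 3 tested 2 were higher. These lists moved with the injury, and their part in the differences given here was not tested.

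All 56 genes were expressed in every library. The lowest count of any of them in any library was 376, for Pttg1, so that none was limited by depth. The median of their mean FPKM (the authors' level scaled to gene length and library size) was 23.4, against 1.09 over the 21845 genes with a count. Top2a, the topoisomerase that untangles sister chromatids, had the highest mean at 131 FPKM, followed by Mki67, the coat protein of mitotic chromosomes, at 103. Bub3 had the highest level of the kinases and checkpoint genes at 77.3 FPKM, Incenp of the chromosomal passenger complex at 68.5, Cdc20 of the anaphase-promoting complex group at 65.8 and Ccnb2 of the cyclin group at 58.4. Kif20a led the kinesins at 56.7 FPKM, Ckap2 the spindle assembly genes at 55.4, Anln the cytokinesis genes at 47.6 and Ndc80 the kinetochore genes at 38.7. The lowest means were those of Pttg1 (5.73 FPKM), Ube2s (8.77) and Cdc25b (9.12).

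Together the 56 genes took about 1% of each library. Their summed level was 10130 to 10152 CPM in LPS, 10214 to 10470 in LPS + M2-Exo, 10398 to 10446 in Hyp and 10523 to 10817 in Hyp + M2-Exo. The Hyp libraries thus all lay above the LPS libraries. That order rested on the most abundant genes. Without Top2a, Mki67 and Smc4 the mean sum was 7574 CPM in LPS and 7408 in Hyp, the reverse order.

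Genes expressed in G2 and M share promoter elements, so the shares given here describe a list of such genes and are no independent test. The rule that chose the genes did not use these elements. The CHR element (TTTGAA or TTCGAA) is bound by MuvB complexes, and the CCAAT box by NF-Y. RefSeq promoter windows of build GRCm38.p6, running from 250 bases before the gene start to 50 after it, were at hand for 46 of the 56 genes and for 27025 genes in all. Read on both strands, a CHR stood in 37 of the 46 windows (80.4%) against 21.7% of all genes, a CCAAT box in 35 (76.1%) against 41.1%, and both in 32 (69.6%) against 8.61%. Near the start the contrast was wider: a CHR began between 50 bases before and 50 after it in 69.6% of the 46 genes and in 6.12% of all genes.

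**Figure D1:**
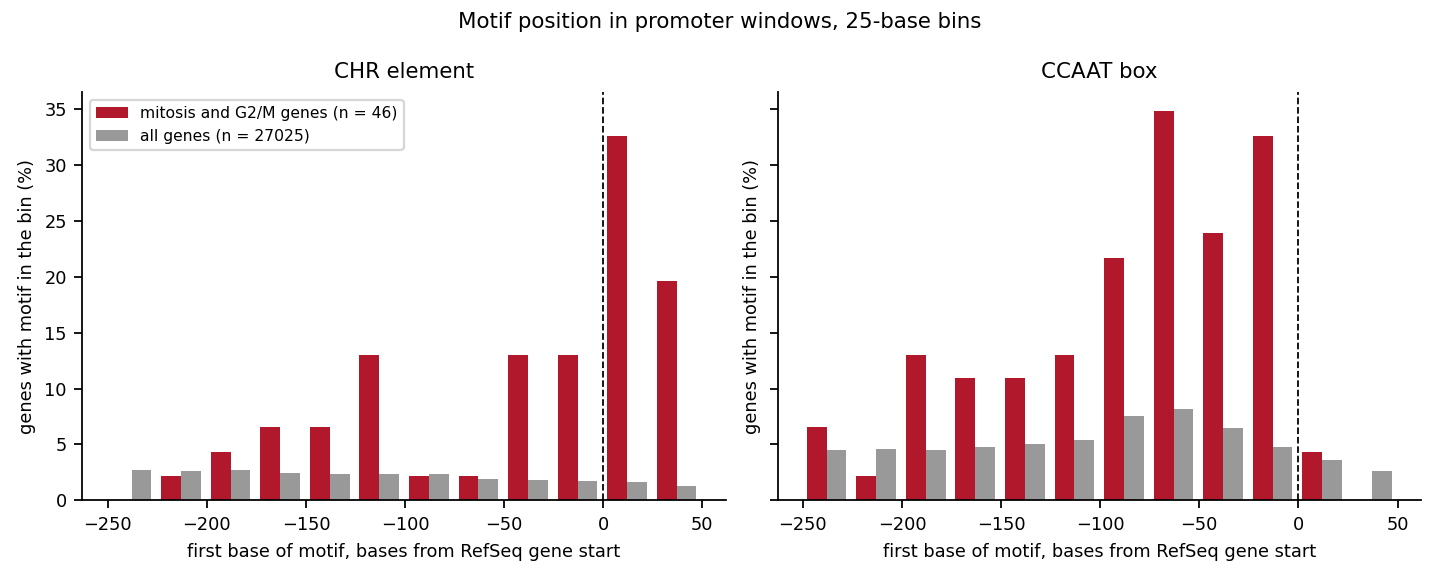
Share of genes (%) whose promoter window held the motif, by 25-base bin of the distance in bases from the RefSeq gene start (dashed line), for the 46 mitosis and G2/M genes with a window (red) and all 27025 genes (grey). The CHR of the mitosis genes was most frequent in the bin that begins at the start, with 32.6% of them against 1.68% of all genes, and the CCAAT box in the bin from 75 to 51 bases upstream, with 34.8% against 8.21%.

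Promoters are printed for 6 genes whose levels differed most between the injuries or that show the usual layout: Ccnb2, Knstrn and Cdc20, lower in Hyp, and Ncapg, Smc2 and Bub1, higher in Hyp. Each run holds 170 bases before the start and 20 after it on the coding strand, 5′ to 3′. Capitals mark CHR and CCAAT matches on either strand, the latter also as ATTGG. Their places are chr9:70421535-70421724 (minus strand), chr2:118813833-118814022 (plus), chr4:118437324-118437513 (minus), chr5:45669755-45669944 (plus), chr4:52439051-52439240 (plus) and chr2:127831840-127832029 (minus), in the order given.
Ccnb2: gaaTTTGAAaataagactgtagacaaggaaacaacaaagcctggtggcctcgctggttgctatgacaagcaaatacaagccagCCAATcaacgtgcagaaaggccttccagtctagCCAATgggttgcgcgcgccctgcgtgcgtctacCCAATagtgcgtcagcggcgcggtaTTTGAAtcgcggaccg
Knstrn: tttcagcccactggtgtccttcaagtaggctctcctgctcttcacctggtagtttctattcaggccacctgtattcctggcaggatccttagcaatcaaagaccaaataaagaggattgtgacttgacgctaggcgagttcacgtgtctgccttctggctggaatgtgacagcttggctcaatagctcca
Cdc20: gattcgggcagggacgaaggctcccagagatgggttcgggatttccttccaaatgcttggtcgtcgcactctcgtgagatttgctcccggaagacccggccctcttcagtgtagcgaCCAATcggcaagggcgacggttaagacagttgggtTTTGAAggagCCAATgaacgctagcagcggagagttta
Ncapg: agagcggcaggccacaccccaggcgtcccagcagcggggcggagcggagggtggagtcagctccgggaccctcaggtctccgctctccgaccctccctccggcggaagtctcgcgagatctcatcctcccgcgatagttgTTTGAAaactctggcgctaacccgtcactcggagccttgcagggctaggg
Smc2: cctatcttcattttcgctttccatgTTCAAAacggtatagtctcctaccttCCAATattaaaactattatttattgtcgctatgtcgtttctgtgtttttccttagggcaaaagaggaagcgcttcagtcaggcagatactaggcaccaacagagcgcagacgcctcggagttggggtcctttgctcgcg
Bub1: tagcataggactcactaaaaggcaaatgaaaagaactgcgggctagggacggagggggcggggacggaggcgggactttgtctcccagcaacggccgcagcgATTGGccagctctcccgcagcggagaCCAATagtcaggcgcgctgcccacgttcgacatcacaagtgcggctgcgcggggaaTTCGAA
Ccnb2 carried 3 CCAAT boxes, starting 87, 54 and 21 bases before the start, a CHR just past the start and another 167 bases upstream. The Cdc20 window had a CHR element beginning 18 bases upstream between 2 CCAAT boxes. Ncapg had a CHR element beginning 30 bases upstream and no CCAAT box, Smc2 a CHR on the other strand 145 bases upstream and a CCAAT box 119 bases upstream, Bub1 a CCAAT box on each strand and a CHR past the start, and Knstrn neither motif in these letters. The motifs did not sort the genes by the direction of their difference between injuries: a CHR stood in 82.4% of the 17 windows of genes higher in Hyp in both injury comparisons described next, and in 78.3% of the 23 windows of genes lower in both.

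The first comparison asked how the 2 injuries differed without M2-Exo. Hyp and LPS libraries differed in 48 of the 56 genes by edgeR's quasi-likelihood test at a Benjamini-Hochberg adjusted p under 0.05, 22 of them higher in Hyp and 26 lower. Differences were the rule between these libraries, since 75.8% of the 13805 genes tested were called, 38% higher and 37.8% lower. The 56 genes did not move as a block. Their median log2 fold change was -0.02 (0.01 over all genes), and the median size of a difference without its sign was 0.30, against 0.51 over all genes. Only Ccnb2 and Knstrn reached a 2-fold difference, a size that 3344 of all genes reached. The groups did not overlap for 47 of the 56 genes, 21 higher and 26 lower in Hyp, against 78.8% of all genes, 39.7% higher and 39.1% lower.

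The same comparison among cells given M2-Exo, made with the other 6 libraries, called 46 of the 56 genes, 20 higher and 26 lower in Hyp + M2-Exo, where 73.7% of all 13660 genes were called, 37.1% higher and 36.5% lower. The groups did not overlap for 45 genes, 20 higher and 25 lower, against 77% of all genes, 39% higher and 38% lower. Scaled by library size alone, the split there was 23 higher and 19 lower, and in Hyp against LPS 24 higher and 21 lower, as the median of all genes then stood at 0.10 in both comparisons. Of the 56 genes, 20 were called higher in both comparisons and 25 lower in both, and none was called in opposite directions. That is 80.4% called the same way in both, against 67.8% of the 13535 genes tested in both. The median SE in Hyp against LPS was 0.041 for the 56 genes and 0.075 for all genes. Its part in those shares was not tested. The fold changes of the 56 genes in the 2 comparisons had a Pearson correlation of 0.96 across genes, and those of all genes 0.95. Across the 16 ways of fitting each comparison, 32 fits in all, 18 genes were called higher in every fit and 17 lower in every fit, and none of the 45 genes changed sign in any.

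**Figure D2:**
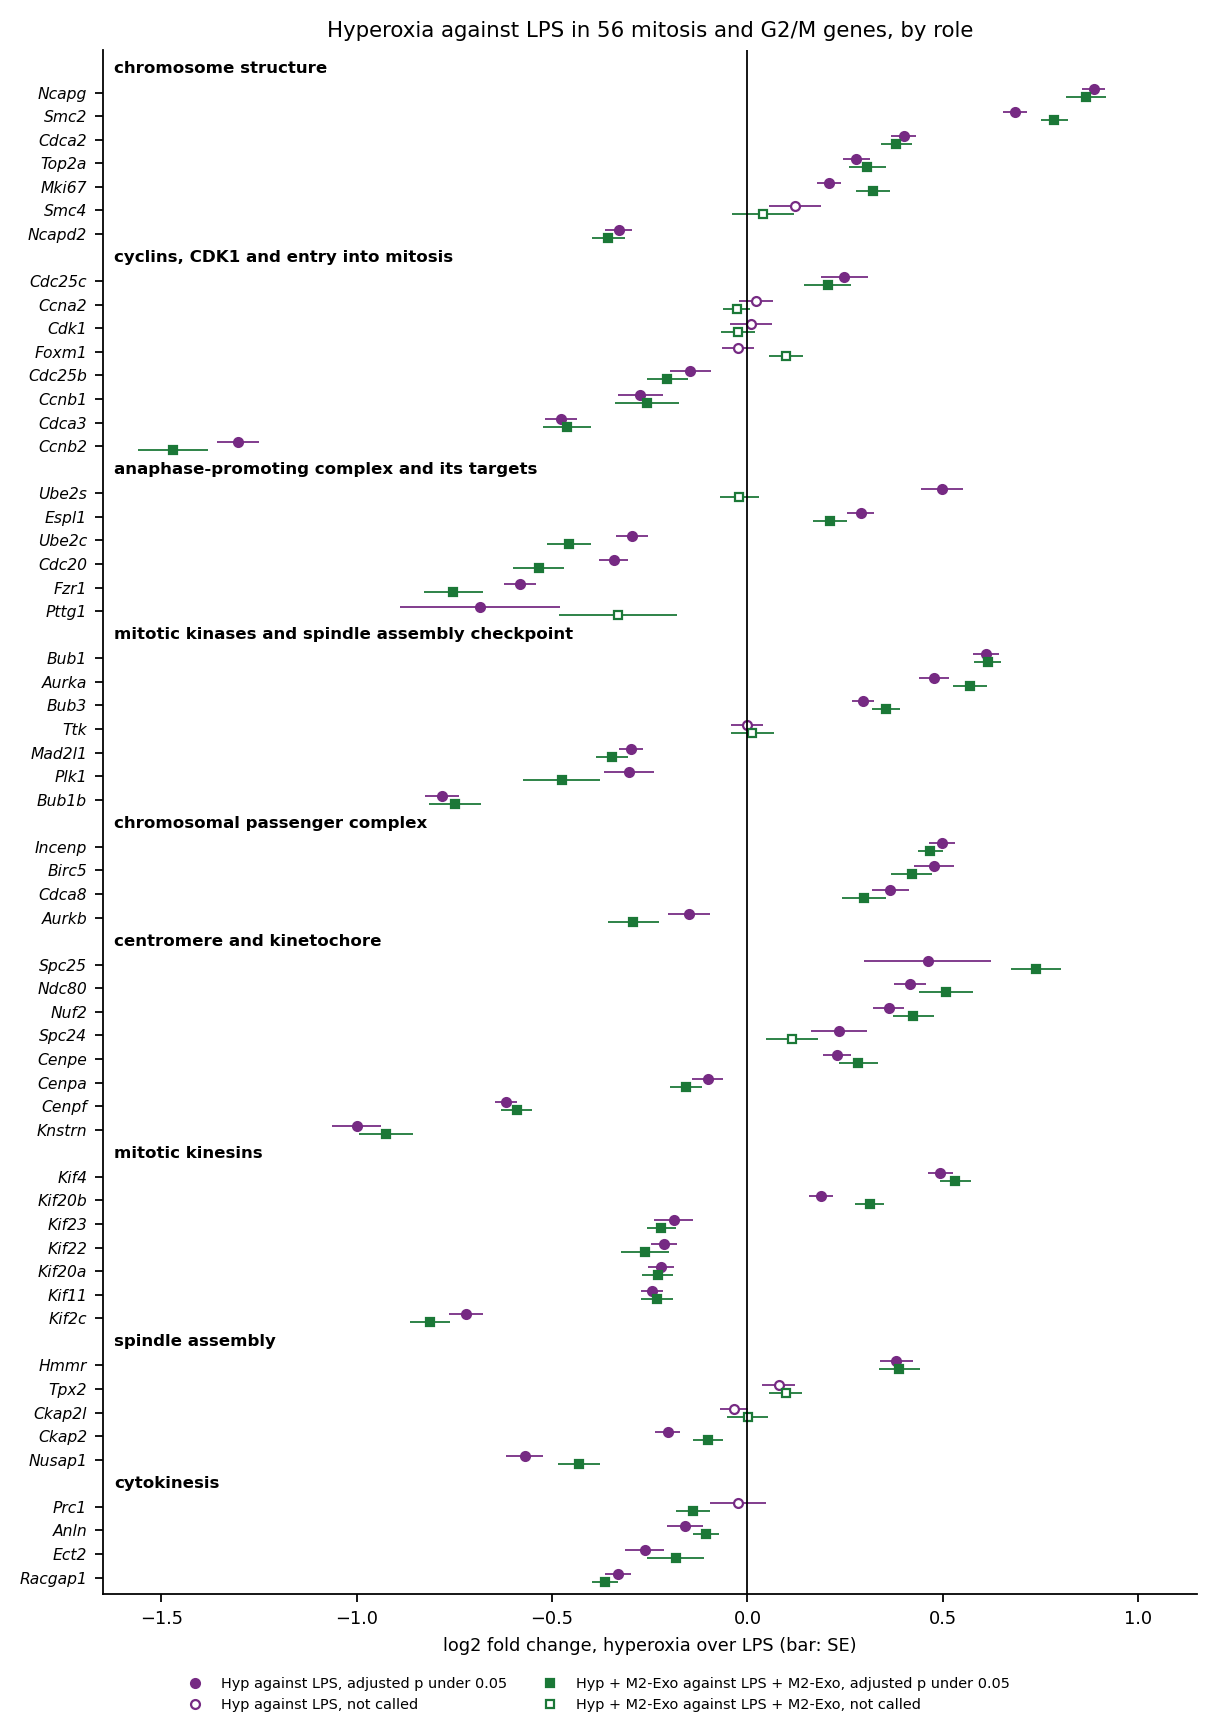
Log2 fold change of hyperoxia over LPS for each of the 56 genes, grouped by role, without M2-Exo (purple circles) and with it (green squares). Filled symbols mark an adjusted p under 0.05, bars the SE. Within most roles genes lie on both sides of 0, from -1.47 for Ccnb2 to 0.89 for Ncapg, and both comparisons place a gene on the same side in 50 of 56 cases.

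Chromosome structure genes were mostly higher in hyperoxia. Of the 7, 5 were higher in Hyp, 1 was lower and 1 was not called. Over all genes in Hyp against LPS, 38% were called higher and 37.8% lower, shares that apply to each role that follows. Ncapg, a condensin subunit, lay at 116, 115 and 111 CPM in LPS, at 121, 130.1 and 127 in LPS + M2-Exo, at 209.8, 212 and 209.9 in Hyp and at 216, 241 and 231 in Hyp + M2-Exo. Every hyperoxia library thus exceeded every LPS library by more than 1.5 times, with a log2 fold change of 0.89 (SE 0.03, edgeR adjusted p = 1.14e-07) without M2-Exo and 0.87 (SE 0.05, adjusted p = 2.13e-06) with it. Ncapg overlaps Lcorl on the other strand, which was also higher in Hyp, by 0.48 log2 units, at a mean of 64.1 CPM. Strand was not stated for the counting, so reads of the 2 genes cannot be told apart.

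Smc2, the condensin ATPase partner of Smc4, measured 234, 228 and 236 CPM in LPS and 228, 227 and 226 in LPS + M2-Exo. Hyp libraries held 367, 384 and 370.2 CPM of it and Hyp + M2-Exo libraries 384, 405 and 386. The log2 fold changes were 0.68 (SE 0.03, edgeR adjusted p = 4.69e-07) and 0.79 (SE 0.03, adjusted p = 4.77e-07), and no hyperoxia library came near the LPS range. Condensin as a whole did not move together, since Ncapd2 was lower in Hyp (-0.33, edgeR adjusted p = 4.11e-05) and Smc4 was not called (0.12, adjusted p = 0.124).

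Top2a lay at 1278, 1211 and 1218 CPM in LPS and at 1511, 1458 and 1528 in Hyp, and at 1289, 1335 and 1227 in LPS + M2-Exo and 1587, 1645 and 1534 in Hyp + M2-Exo. It was 1.21-fold higher in Hyp (log2 0.28, SE 0.04, edgeR adjusted p = 0.000144). Mki67, the most used proliferation marker, was 1.16-fold higher (log2 0.21, adjusted p = 0.000332), and Cdca2, which brings a phosphatase to chromatin at mitotic exit, 1.32-fold higher (log2 0.40, adjusted p = 1.22e-05).

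Cyclin and mitotic entry genes held the widest difference of the whole set. In this group of 8, 4 were lower in Hyp, 1 higher and 3 not called. Ccnb2, cyclin B2, lay at 137, 123 and 122 CPM in LPS against 51.1, 50.2 and 53.3 in Hyp, and at 138, 137 and 135 in LPS + M2-Exo against 56.6, 48.5 and 43.1 in Hyp + M2-Exo. The ranges lay far apart, with log2 fold changes of -1.30 (SE 0.05, edgeR adjusted p = 2.64e-07) and -1.47 (SE 0.09, adjusted p = 2.35e-06). Cyclin B1 differed much less. Ccnb1 was at 0.83 of its LPS level in Hyp (log2 -0.27, edgeR adjusted p = 0.00272), with 5 genes of near-identical sequence, its pseudogene copies among them, that could have shared its reads.

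The partner kinase did not follow the cyclins. Cdk1 had a log2 fold change of 0.01 (95% interval -0.12 to 0.13, edgeR adjusted p = 0.889). Ccna2, cyclin A2, stood at 263, 283 and 258 CPM in LPS, 279.7, 284 and 292 in LPS + M2-Exo, 283, 269 and 263 in Hyp and 284, 274.5 and 281 in Hyp + M2-Exo, so that its groups overlapped, and its log2 fold change was 0.02 (interval -0.08 to 0.12, adjusted p = 0.672). The CDC25 phosphatases split, with Cdc25c higher in Hyp (0.25, adjusted p = 0.00545) and Cdc25b lower (-0.15, adjusted p = 0.0335, not called with library size alone). Cdca3, a trigger of mitotic entry, was lower (-0.48, adjusted p = 1.58e-05). Foxm1, the transcription factor of the G2/M program, measured 243, 238 and 247 CPM in LPS and 237, 227 and 251 in Hyp, which overlap (log2 -0.02, interval -0.12 to 0.07, adjusted p = 0.614).

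Genes of the anaphase-promoting complex and its targets were all called in Hyp against LPS, 2 higher and 4 lower. Of all genes tested there, 75.8% were called. Cdc20, the activator in early mitosis, lay at 167, 166 and 177 CPM in LPS and at 133, 133 and 136 in Hyp. With M2-Exo the values were 176, 182 and 181 in LPS + M2-Exo against 137, 122 and 113 in Hyp + M2-Exo. Neither pair of groups overlapped, and the log2 fold changes were -0.34 (SE 0.04, edgeR adjusted p = 5.91e-05) and -0.53 (SE 0.07, adjusted p = 0.000128). Cdc20 overlaps Elovl1 on the other strand, at a mean of 43.8 CPM. Elovl1 was also lower in Hyp (log2 -0.33), and was not called in Hyp + M2-Exo against LPS + M2-Exo (-0.135). Fzr1, the activator that takes over at mitotic exit, was lower in both comparisons (log2 -0.58 and -0.75), and so was Ube2c, the E2 enzyme that starts ubiquitin chains (log2 -0.30 and -0.46). Espl1, the separase that cuts cohesin, was higher (0.29, edgeR adjusted p = 0.000109).

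Pttg1, securin, was the least even of the set. Its values were 38.4, 22.9 and 36.0 CPM in LPS, 23.3, 36.3 and 35.0 in LPS + M2-Exo, 16.1, 22.9 and 21.5 in Hyp and 25.4, 25.2 and 24.7 in Hyp + M2-Exo. It was called lower in Hyp against LPS (-0.68, SE 0.20, edgeR adjusted p = 0.0155), where LPS library 2 and Hyp library 2 nearly met, and not in Hyp + M2-Exo against LPS + M2-Exo (-0.33, adjusted p = 0.0787).

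Kinases and checkpoint genes went both ways, with 3 higher, 3 lower and 1 not called. The paralogues Bub1 and Bub1b, both kinetochore checkpoint proteins, moved in opposite directions. Bub1 lay at 133, 126 and 126 CPM in LPS and 195, 199 and 195 in Hyp, and at 130.1, 135 and 136 in LPS + M2-Exo and 203, 205 and 207 in Hyp + M2-Exo. Bub1b lay at 170.2, 178 and 182 CPM in LPS, 177, 177 and 184 in LPS + M2-Exo, 99.3, 102 and 107 in Hyp and 119, 102 and 99.3 in Hyp + M2-Exo. Bub1 was 1.53-fold higher in Hyp (log2 0.61, SE 0.03, edgeR adjusted p = 1.08e-06) and Bub1b stood at 0.58 of its LPS level (log2 -0.78, SE 0.04, adjusted p = 1.21e-06), and neither overlaps another gene of the table.

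Bub3, which carries both proteins to the kinetochore, stood at 138, 136 and 137 CPM in LPS, 147, 141 and 143 in LPS + M2-Exo, 170.3, 168 and 166 in Hyp and 184, 188 and 179 in Hyp + M2-Exo. It was higher in Hyp by 0.30 log2 units (edgeR adjusted p = 2.84e-05). Mad2l1, the checkpoint protein that binds CDC20, had 223, 231 and 227 CPM in LPS against 189.5, 183 and 182 in Hyp, a difference of -0.30 (adjusted p = 4.93e-05). Plk1 was lower as well (-0.30, adjusted p = 0.00256), Aurka, the centrosomal kinase, was higher (0.48, adjusted p = 9.56e-06), and Ttk, the MPS1 kinase, was not called (0.00, interval -0.10 to 0.09, adjusted p = 0.972).

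Of the 4 chromosomal passenger complex genes, 3 were higher and the kinase itself was lower. Incenp, the scaffold, lay at 180.3, 185 and 185 CPM in LPS, 179.8, 186 and 181 in LPS + M2-Exo, 266, 260.3 and 250.2 in Hyp and 252, 251 and 253 in Hyp + M2-Exo. The log2 fold changes were 0.50 (SE 0.03, edgeR adjusted p = 3.58e-06) and 0.47 (SE 0.03, adjusted p = 4.36e-06), with no overlap. Birc5, survivin, was higher by 0.48 and Cdca8, borealin, by 0.37, whereas Aurkb was lower (-0.15, adjusted p = 0.0344), a call that was lost with library size alone. Between Hyp + M2-Exo and LPS + M2-Exo, Aurkb differed by -0.29 (edgeR adjusted p = 0.00375).

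At the kinetochore, 5 of 8 genes were higher and 3 lower. All 4 subunits of the NDC80 complex, the microtubule attachment site, were higher in Hyp, by 0.23 to 0.46 log2 units. Ndc80 lay at 71.8, 73.5 and 72.5 CPM in LPS, 68.4, 74.9 and 66.4 in LPS + M2-Exo, 93.0, 99.3 and 98.5 in Hyp and 92.0, 106 and 101 in Hyp + M2-Exo (log2 0.42 and 0.51, edgeR adjusted p = 3.38e-05 and 0.000237). Nuf2 differed by 0.36 and 0.42. The smaller subunits were less certain. Spc24 was not called among cells with M2-Exo (0.11, adjusted p = 0.155), and Spc25 was at 37.2 CPM in Hyp library 1, inside the LPS range, but at 58.3 and 58.6 in the other Hyp libraries.

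Knstrn, which helps to align and separate chromosomes, had the widest difference of the kinetochore genes in Hyp against LPS. It lay at 171, 184 and 173 CPM in LPS, 152, 184 and 176 in LPS + M2-Exo, 95.4, 87.5 and 80.6 in Hyp and 92.8, 89.7 and 87.1 in Hyp + M2-Exo, with log2 fold changes of -1.0 (SE 0.06, edgeR adjusted p = 2.46e-06) and -0.93 (SE 0.07, adjusted p = 7.22e-06). Cenpf, a large protein of the outer kinetochore, had 293, 293 and 284 CPM in LPS, 283, 298 and 285 in LPS + M2-Exo, 188, 190.3 and 188 in Hyp and 193, 198 and 185 in Hyp + M2-Exo (-0.62, adjusted p = 3.88e-07, and -0.59, adjusted p = 3.75e-06). Cenpe, a kinetochore motor, was higher by 0.23 and Cenpa, the centromeric histone, lower (-0.10), a call lost with library size alone.

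Mitotic kinesins were called in all 7 cases in Hyp against LPS, 2 higher and 5 lower, where 75.8% of all genes were called. Kif2c, which takes apart microtubules at the centromere, lay at 108, 106 and 113 CPM in LPS, 119, 112 and 107 in LPS + M2-Exo, 65.3, 64.7 and 68.5 in Hyp and 65.4, 64.9 and 62.6 in Hyp + M2-Exo (log2 -0.72, SE 0.04, edgeR adjusted p = 1.88e-06, and -0.81, SE 0.05, adjusted p = 2.92e-06). Kif20a, needed for cytokinesis, measured 225, 225.4 and 237 CPM in LPS, 240.4, 237 and 231 in LPS + M2-Exo, 196, 199 and 194 in Hyp and 209, 202 and 193 in Hyp + M2-Exo (-0.22, adjusted p = 0.000425). Kif11, Kif22 and Kif23 were lower, with log2 fold changes of -0.24, -0.21 and -0.19, of which Kif23 was not called with library size alone. Kif4, a chromosome motor, was higher by 0.49 and Kif20b by 0.19.

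Among the 5 spindle assembly genes, Hmmr was higher (0.38, edgeR adjusted p = 6.73e-05), Nusap1 and Ckap2 were lower, and Tpx2 and Ckap2l were not called. Nusap1, which bundles spindle microtubules, lay at 128, 133 and 128 CPM in LPS, 122, 137 and 125 in LPS + M2-Exo, 91.2, 89.6 and 81.7 in Hyp and 97.5, 95.2 and 92.1 in Hyp + M2-Exo (-0.57, adjusted p = 1.26e-05). Ckap2 had 154, 158 and 151 CPM in LPS, 146, 149.8 and 154 in LPS + M2-Exo, 134, 132 and 135 in Hyp and 137, 142 and 140.2 in Hyp + M2-Exo (-0.20, adjusted p = 0.000427).

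No cytokinesis gene was higher in hyperoxia in either comparison. Of the 4, 3 were lower in Hyp and all 4 in Hyp + M2-Exo, where 37.8% and 36.5% of all genes were called lower. Anln dropped out with library size alone in both, and Ect2 and Prc1 in Hyp + M2-Exo. Anln, anillin, lay at 255, 284 and 279.8 CPM in LPS, 276, 266 and 261 in LPS + M2-Exo, 242, 243 and 248 in Hyp and 251, 248 and 247 in Hyp + M2-Exo (-0.16, edgeR adjusted p = 0.0125). Racgap1, part of centralspindlin, showed the clearest difference (-0.33, adjusted p = 3.32e-05, and -0.36, adjusted p = 2.01e-05). Prc1 was not called in Hyp against LPS (-0.02, adjusted p = 0.777), where Hyp library 3 stood at 223 CPM and the other Hyp libraries at 184 and 187.

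**Figure D3:**
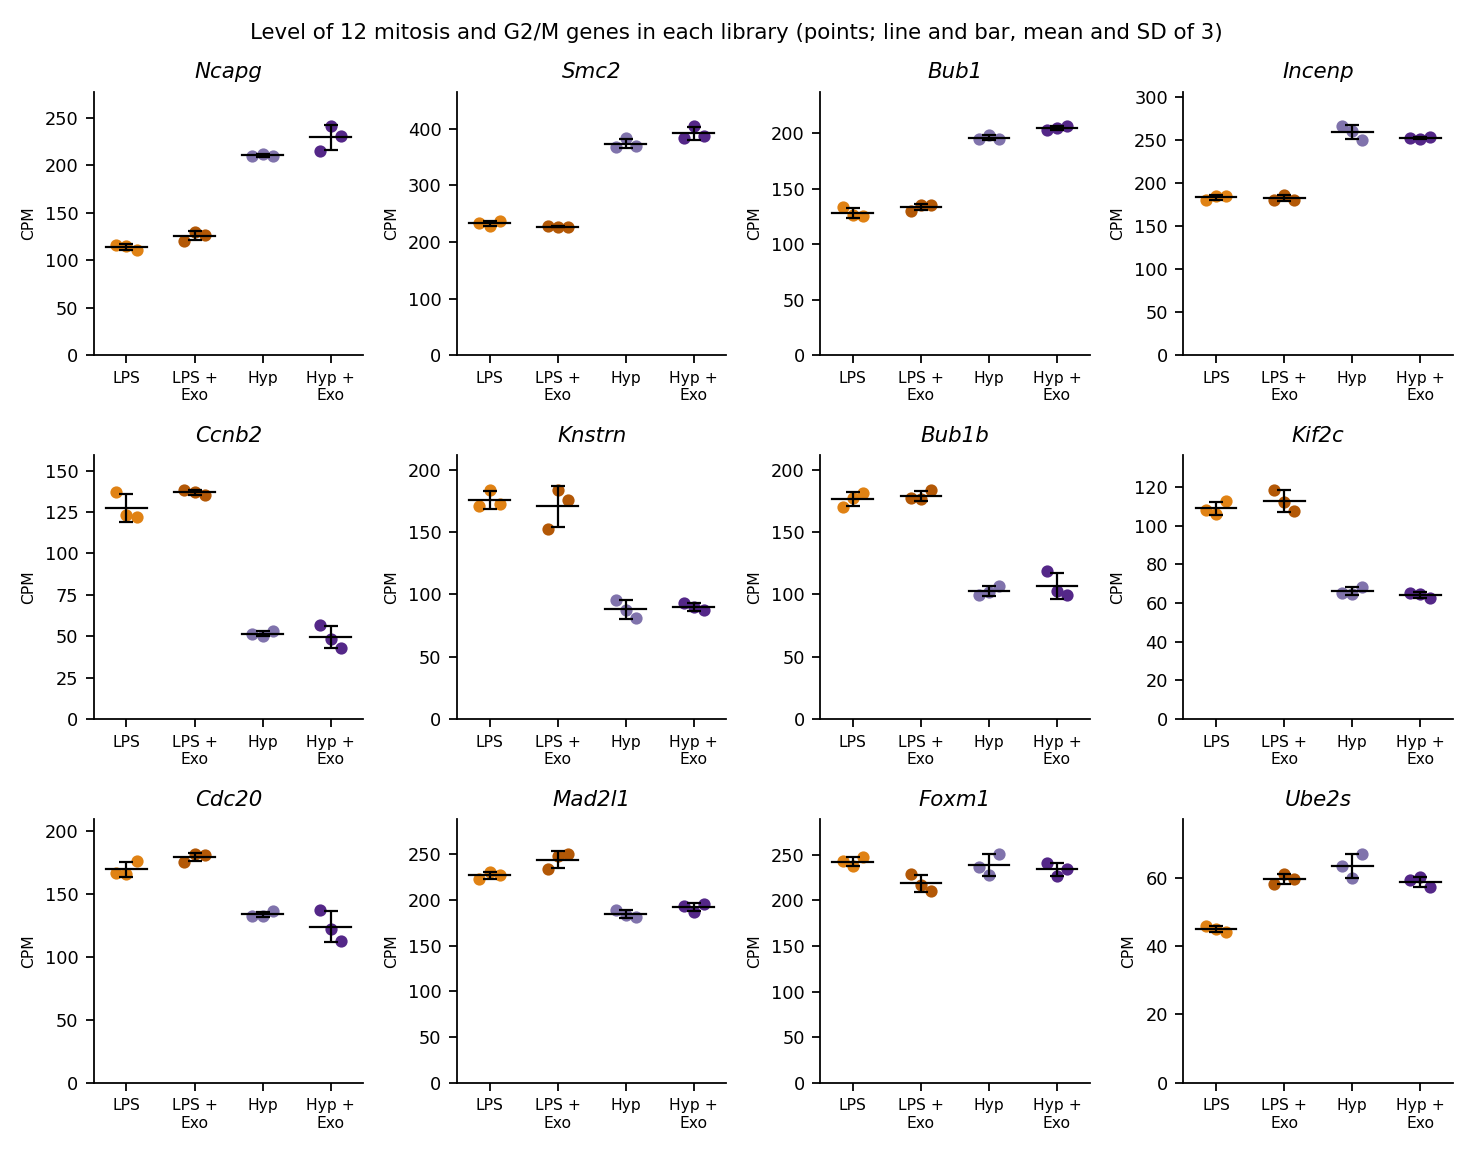
CPM of 12 of the genes in each of the 12 libraries (points, coloured by group), with the mean and SD of the 3 libraries of a group in black. Ncapg, Smc2, Bub1 and Incenp lie higher and Ccnb2, Knstrn, Bub1b, Kif2c, Cdc20 and Mad2l1 lower in both hyperoxia groups, Foxm1 overlaps between injuries, and Ube2s is lowest in the LPS group, at 44.0 to 46.0 CPM.

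The next question was whether M2-Exo changed these genes in hyperoxic cells. In Hyp + M2-Exo against Hyp, edgeR called none of the 56 genes, and DESeq2 and limma also called none. Of the 13815 genes tested, 0.101% were called, 0.0507% higher and 0.0507% lower. An unadjusted p under 0.05 was reached by 5 of the 56 (8.93%), close to the 8.48% of all genes. The fitted differences were small, from -0.14 to 0.33 log2 units with a median of 0.03 (0.00 over all genes), and for 42 genes the 95% interval lay within 0.2 of 0 on either side. Only Pttg1 and Spc25 had intervals that reached beyond 0.5.

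The fitted value was higher with M2-Exo in 35 genes and lower in 21, and in 16 genes (28.6%) all 3 Hyp + M2-Exo libraries exceeded all 3 Hyp libraries, where 8.89% of all genes did so. In 3 genes (Cenpa, Espl1 and Ube2c) every treated library was lower, as in 7.11% of all genes. The genes share these 6 libraries, so their shifts are not independent of each other, and no test was made of the count. Bub3, whose values are given above, had the smallest p (log2 0.12, 95% interval 0.05 to 0.20, edgeR adjusted p = 0.541).

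Kif20b, a kinesin of late mitosis, lay at 162, 169 and 168 CPM in Hyp and 178, 186 and 178 in Hyp + M2-Exo (0.11, interval 0.03 to 0.20, edgeR adjusted p = 0.544), against 147, 144 and 147 in LPS and 145, 145 and 147 in LPS + M2-Exo. Kif11, the bipolar spindle motor, had 176, 181 and 179.9 CPM in Hyp and 188, 193 and 187 in Hyp + M2-Exo (0.08, adjusted p = 0.576), against 215, 211 and 210.2 in LPS and 212, 231 and 224 in LPS + M2-Exo. For Cenpa, 135, 139 and 142 CPM in Hyp stood against 135, 130.0 and 129 in Hyp + M2-Exo (-0.08, adjusted p = 0.589), and 143, 149 and 153 in LPS against 151, 147 and 141 in LPS + M2-Exo. The groups did not overlap for these genes, and none of the differences passed the adjusted threshold. Ncapg (0.12), Nusap1 (0.11), Pttg1 (0.31) and Ube2s (-0.12) completed the 8 smallest p-values, with adjusted p from 0.575 to 0.602.

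In LPS-treated cells 1 of the 56 genes changed with M2-Exo, where 0.187% of the 13353 genes tested were called, 0.0524% higher and 0.135% lower. Ube2s, the E2 enzyme that lengthens ubiquitin chains for the anaphase-promoting complex, lay at 46.0, 45.01 and 44.0 CPM in LPS and at 58.2, 61.2 and 59.5 in LPS + M2-Exo. Hyp libraries held 63.5, 59.98 and 67.1 CPM of it and Hyp + M2-Exo libraries 59.2, 60.1 and 57.2. The LPS libraries stood apart below all others. With M2-Exo the level was 1.33-fold higher (log2 0.41, SE 0.05, 95% interval 0.30 to 0.51, edgeR adjusted p = 0.0191). The call was lost, at nearly the same fold change, when LPS library 2 or 3 or LPS + M2-Exo library 2 or 3 was left out, with adjusted p up to 0.0836.

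Ube2s (chr7:4794546-4812590, GRCm38, minus strand) overlaps Rpl28 on the plus strand and shares a stretch of 186 near-identical bases with other transcripts. Rpl28 averaged 12.1 CPM and had a log2 fold change of -0.03 in the same comparison (edgeR adjusted p = 0.96). Macrophage markers summed lower in LPS + M2-Exo than in LPS, as given above. Of 11 tested, 10 had a lower fitted value and Mrc1 a higher one (log2 0.59), at 1.22 against 0.81 CPM. By edgeR 0 of the 11 were called, and 8 had an unadjusted p under 0.05. The part of these markers in the Ube2s difference was not tested.

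The other 55 genes were not called in LPS-treated cells. An unadjusted p under 0.05 was reached by 4 of the 56 (7.14%), against 11.1% of all genes, and 6 had groups that did not overlap (10.7%, against 17.2%), 5 higher and 1 lower with M2-Exo, against 8.08% and 9.16% of all genes. Foxm1 was at 229, 217 and 210.3 CPM in LPS + M2-Exo, all below its LPS values (log2 -0.15, interval -0.24 to -0.06, edgeR adjusted p = 0.249), and at 241, 227 and 234 in Hyp + M2-Exo. Mad2l1 had 234, 249 and 251 CPM there, all above LPS (0.11, adjusted p = 0.368), and 194, 187 and 196 in Hyp + M2-Exo. Ncapg (0.14), Cdc20 (0.08), Ccna2 (0.09), Ccnb2 (0.10) and Bub3 (0.07) had adjusted p from 0.301 to 0.508. For 45 genes the interval lay within 0.2 of 0.

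**Figure D4:**
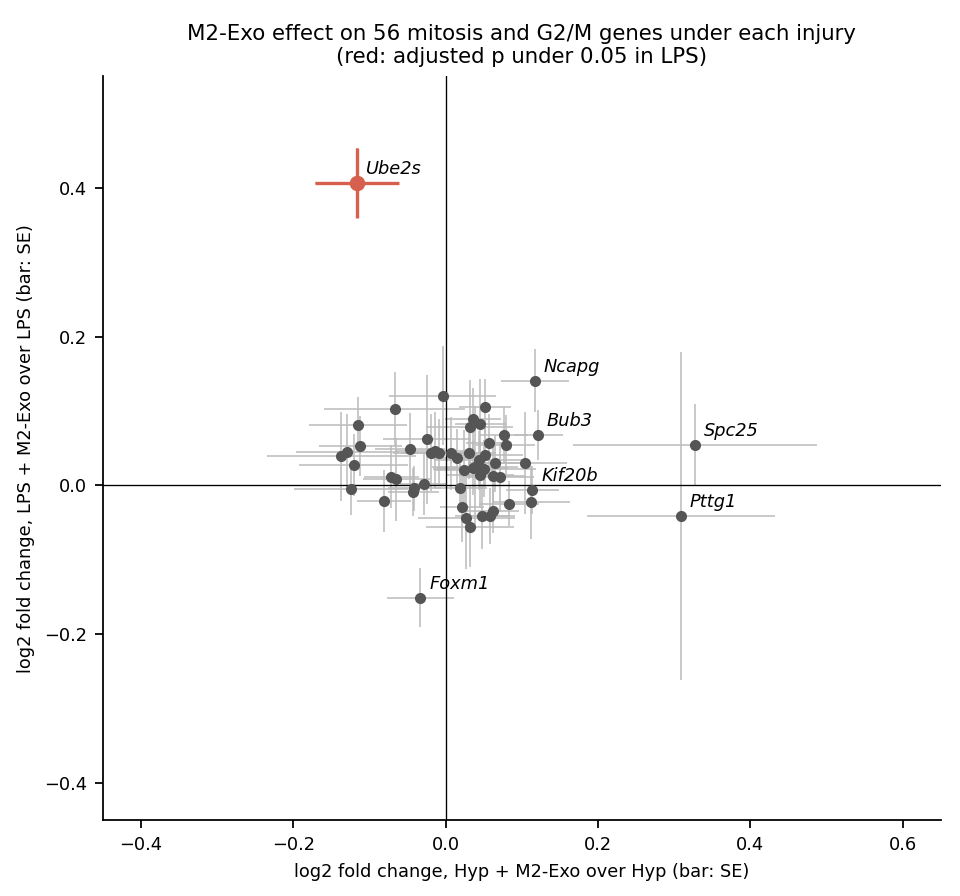
Log2 fold change with M2-Exo in hyperoxia (x axis) and in LPS (y axis) for each of the 56 genes, with SE bars. Ube2s, in red, was the one gene called (0.41 in LPS, -0.12 in hyperoxia), and most others lie within 0.2 of 0 on both axes.

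Whether M2-Exo acted differently under the 2 injuries was tested as an interaction over all 12 libraries. Ube2s was again the one gene of the 56 called (difference of log2 fold changes, hyperoxia minus LPS, -0.52, SE 0.07, edgeR adjusted p = 0.0244), where 0.0352% of the 14187 genes tested were called, 0.0141% with a positive and 0.0211% with a negative difference. An unadjusted p under 0.05 was reached by 7 of the 56, against 9.78% of all genes. In LPS it rose in all 3 treated libraries to the level of the hyperoxic cells, and in hyperoxia the treated and untreated ranges overlapped. The call was lost for 7 of the 12 libraries when that library was left out, with adjusted p up to 0.0904. For the other 55 genes the differences lay between -0.19 and 0.36 and none was called.

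Neighbouring cell cycle genes gave a context for the injury difference. Of 69 other mitosis genes tested in Hyp against LPS, 38 were higher, 18 lower and 13 not called, and their median difference was 0.25 log2 units (75.8% of all genes were called). All 14 subunits of the anaphase-promoting complex were called, 9 higher and 5 lower. Of 22 MuvB, DREAM and E2F regulators 14 were higher and 3 lower, and of 48 DNA replication and G1/S genes 31 were higher and 9 lower, with medians of 0.26 and 0.35. These medians stood above that of the 56 genes (-0.02), and the difference between lists was not tested.

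CDK inhibitors and p53 arrest genes were all called in Hyp against LPS, 8 higher and 10 lower of 18. Over all genes the share called was 75.8%. Cdkn1a, the CDK inhibitor p21, lay between 25.5 and 26.2 CPM in LPS and between 191 and 202 in Hyp (log2 2.92, edgeR adjusted p = 8.02e-09), and between 201 and 234 in Hyp + M2-Exo. Cdkn1b, the inhibitor p27, moved the other way, from 150.1 to 156 CPM in LPS to 50.9 to 54.8 in Hyp (-1.54, adjusted p = 4.78e-08). Cdc6, which loads the replicative helicase, was higher by 1.47 and E2f8, a repressor of the E2F family, by 1.70. In Hyp + M2-Exo against LPS + M2-Exo, Cdkn1a was higher by 3.07 and Ncapg2, a condensin II subunit, by 1.18. Cdc45, part of the replicative helicase, was higher there by 1.06, while Cdkn2b, a CDK4 inhibitor, was lower (-1.99). Of the 7 type II markers tested, 5 were lower in Hyp, Nkx2-1 with the smallest p (-2.13). The 2 higher were Etv5 (0.50) and Sftpb (1.62), the latter at low means of 1.498 CPM in LPS and 4.633 in Hyp. Of 6 fibroblast markers 4 were lower and none higher, with Pdgfra at -4.44, and among cells with M2-Exo Dcn was lower (-1.14). No gene of the 5 cell cycle lists was called for M2-Exo in either injury, where edgeR's smallest adjusted p was 0.541 in hyperoxia and 0.292 in LPS. In hyperoxia 7 of 69 other mitosis genes, 1 of 14 subunits of the complex and 2 of 22 regulators had an unadjusted p under 0.05. So did 2 of 18 inhibitor and arrest genes and 7 of 48 replication genes, against 8.48% of all genes. In LPS the counts were 5, 1, 3, 2 and 2 in the same order, against 11.1% of all genes.

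Counting could mix some genes with others. Of the 56, 21 overlap another gene of the table and 16 share at least 150 bases of at least 95% identity with another transcript, 32 having either. The 24 genes with neither included 10 higher and 10 lower in Hyp than in LPS. Bub1 and Incenp were among the higher and Ccnb2, Bub1b and Kif2c among the lower. The 32 genes with either included 12 higher and 16 lower, and 75.8% of all genes were called in that comparison. Among the overlapping genes, Mfsd12 was lower in Hyp than in LPS like Fzr1 (log2 -0.33 for Mfsd12). Pdzd11 (0.745, with Kif4) and 9930104L06Rik (0.66, with Cdca8) were higher, as were the genes they overlap. Cdc23 (0.23, with Kif20a) and Fgfr2 (-0.51, with Bub3) moved against the genes they overlap.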

How the data were processed

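Poly(A) RNA libraries of 12 MLE-12 samples, 3 in each of 4 groups, were sequenced on a NovaSeq instrument. Per the labels and the study's methods, the authors filtered reads with Seqtk, aligned them with HISAT2 2.0.4 to GRCm38 and used StringTie 1.3.0, as listed in the submitters' processing notes. The program behind the counts, the annotation release and the strand setting were not given in the sources used here. The authors deposited raw gene counts and FPKM for each library in 1 table, which also gave gene names and positions.

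Counts were tested with edgeR 4.0.16 (quasi-likelihood F-test, filterByExpr, TMM, R 4.3.3) on the 6 libraries of each comparison, and the interaction on all 12. P-values were adjusted over all genes tested, and a gene was called at an adjusted p under 0.05. CPM were scaled by TMM over the 12 libraries. FPKM served only to compare levels between genes and in limma 3.58.1 alternatives. Other alternatives were DESeq2 1.42.0, other scalings and filters, a replicate block and leaving out each library. The test was checked on simulated counts. Promoter windows were taken from RefSeq (GRCm38.p6), and near-identical transcript stretches were found with BLAST 2.17.0 (at least 95% identity over 150 bases). Intervals are at 95%.

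The genes and lists were chosen with earlier results of these data known. Values in every library are given for up to 8 genes of smallest p in each of the 4 comparisons of 2 groups and for the gene of highest mean FPKM in each role, and from the other lists up to 3 rises and 3 falls of smallest p. Aurkb, Aurka, Ube2c and other genes given by fold change alone are additions to that rule.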

Additional observations from a re-analysis of the deposited data

Results flagged for a closer look

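The response of Ube2s to M2-Exo differed between the injuries by the interaction test of edgeR over the 12 libraries. The log2 fold change in hyperoxia minus that in LPS was -0.52 (SE 0.07, adjusted p = 0.0244). All 3 LPS + M2-Exo libraries lay above all 3 LPS libraries, and the Hyp + M2-Exo libraries overlapped the Hyp libraries. The call was lost for 7 of the 12 libraries when that library was left out, with adjusted p up to 0.0904.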

How the results depend on the processing

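In Hyp against LPS, 43 to 48 of the 56 genes were called when 1 library was left out, and 42 to 46 among cells with M2-Exo. The median log2 fold change of the 56 genes turned positive with library size alone (0.0661, and 0.0649 with M2-Exo), with limma on log2(FPKM + 1) (0.0592 and 0.0621) and on log2(FPKM + 0.1) (0.062 and 0.0651), and the cause was not tested. The median of all genes, 0.00906 and 0.00825 in the main fits, was 0.0987 and 0.0991 with library size alone. With the limma settings it was 0.0937 and 0.0926, then 0.107 and 0.106, above that of the 56 genes each time. Their mean summed level, with LPS first, then LPS + M2-Exo, then Hyp and last Hyp + M2-Exo, was 1684.5, 1713.3, 1798.9 and 1829.2 FPKM, 9850, 9971.3, 10769 and 11003 CPM with library size alone, and 7574.4, 7698.7, 7408.1 and 7531 CPM without Top2a, Mki67 and Smc4.

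For M2-Exo in hyperoxia, all genes called numbered 14, but 37 with DESeq2, 8 with the replicate block, 2 with all 12 libraries in 1 fit and 12 to 21 without 1 library. In LPS they numbered 25, but 130 with DESeq2, 6 with the block, 12 with all 12 libraries and 21 to 39 without 1 library. The interaction called 5 genes, but 13 with no filter, 70 with DESeq2, 3 with the block and 4 to 34 without 1 library, the 34 without Hyp + M2-Exo replicate 1. Of the 56 genes, 0 were called with the block in LPS and in the interaction, and 0 to 1 without 1 library in each.

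When a library was left out, the log2 fold change of Ube2s lay between 0.39 and 0.42 in LPS, where it was called in 2 of 6 fits (edgeR adjusted p up to 0.0836), and between -0.56 and -0.48 in the interaction, where it was called in 5 of 12 (up to 0.0904). With the replicate block its adjusted p was 0.204 in LPS and 0.134 in the interaction. Between Hyp + M2-Exo and LPS + M2-Exo, where it was not called, its log2 fold change of -0.02 became 0.0701 with library size alone, 0.0628 and 0.069 with limma on log2(FPKM + 1) and log2(FPKM + 0.1), and 0.0044 without Hyp + M2-Exo replicate 3, the highest of a range from -0.0426 when 1 library was left out. Libraries sharing a replicate number deviated together weakly at most (correlations from -0.00327 to 0.0791). With 3 libraries in a group such values cannot exclude a pairing by number. The block left 48 genes called in Hyp against LPS. Depth did not limit these genes, whose lowest count was 376.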

Other observations

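The genes outside all lists whose log2 CPM ran most like the mean of the 56 genes over the 12 libraries were Slc25a4, the mitochondrial ADP/ATP carrier (Pearson r 0.904), Txndc11 (0.882), Sp3, a zinc finger transcription factor (0.88), Ttll4, a tubulin polyglutamylase (0.871), and AI314180 (0.858). They are given as a description, from 5169 genes with a mean of at least 50 CPM, and the libraries share the injury and treatment groups. The 56 genes were called in both directions in Hyp against LPS, 22 higher and 26 lower, so their mean does not describe each gene.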
